A study of Mus musculus with 2 samples.

Results

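Histone genes whose symbols start with Hist1h, Hist2h, Hist3h or Hist4 were followed through single cells of mouse bone marrow. The gene table listed 67 such symbols among 31053 genes. Of these, 63 had at least 10 unique molecular identifiers (UMIs, each counting 1 captured transcript molecule) in both libraries together, and these 63 are the genes described here, beside 15842 genes of all kinds with the same minimum. They were 6 linker (H1) genes and 57 core genes, the latter made up of 16 H2A, 16 H2B, 12 H3 and 13 H4 genes. Just inside the minimum lay Hist1h3h with 18 UMIs and Hist1h1t with 24, and just outside it lay Hist2h2aa2 with 2, Hist1h2bq with 1, and Hist1h2ba and Hist1h2aa with 0.

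The cells were LSK CD150+ cells, a sort for immature blood cells that bear the surface proteins Sca-1, Kit and CD150. They came from mice with a loxP-flanked Runx1 gene (Runx1 F/F) and Mx1-Cre, a recombinase that interferon signalling switches on and that is not restricted to blood stem cells. Each genotype label, RUNX1 WT and RUNX1 KO, belongs to 1 10x library. The labels give neither the age or number of the mice, nor any inducer, nor whether the WT mice carried the floxed allele or the Cre.

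Core histones H2A, H2B, H3 and H4 form the protein spool around which DNA is wound, and linker histone H1 sits where the DNA enters and leaves it. Cells make most of their histones while they copy their DNA, from intronless genes that lie in clusters. The mRNAs of these genes end in a short stem-loop bound by the stem-loop binding protein Slbp instead of a poly(A) tail, and they are destroyed when replication ends. Some of the genes also give polyadenylated transcripts, mostly in cells that have stopped dividing, and libraries of the kind used here prime on poly(A).

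The WT library kept 9472 cells (median 9884 UMIs) and the KO-labelled library 10769 (9310 UMIs), and 33 barcode sequences occurred in both. Runx1 itself had 104 UMIs per 1000000 of the library (CPM) in WT and 196 in the library labelled KO, a ratio of 1.89, so directions below are those of the library labelled KO and not of a loss of Runx1. The 3′ tags may lie outside the deleted part, in which case they check nothing about the genotype. All 10 stem cell markers of a fixed list, such as Procr and Mecom, were measured, with a sum of 433 CPM in WT and 388 CPM in the KO-labelled library. Of these, 3 were higher and 7 lower in the KO-labelled library, with a median ratio of 0.618 against 0.934 over all genes. At least 1.5-fold lower were 5 of them, against 14.0% of all genes, and 1 was at least 1.5-fold higher, against 7.75%. Cells with Y-linked UMIs and no Xist UMI were 6690 of the kept WT cells and 973 of the KO-labelled ones, so sex differs between the libraries. With 1 library per genotype no difference could be tested. All intervals are at 95%, exact, and cover the error of counting alone, and UMIs from reads that fit several near-identical genes may be split or lost.

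The stem-loop could be read from the annotated transcripts (GENCODE M21, GRCm38) of 45 of the 63 genes, against 0.539% of 21901 protein-coding genes. There were 8 distinct versions. They are shown because they mark which gene models run to the processed 3′ end and which run past it. The first was shared by 25 H1, H2A, H2B and H3 genes, the second by 7 H4 genes and the next by 6 H1, H2B and H3 genes, while Hist1h4i and Hist2h4 shared the fourth and Hist1h4b and Hist1h4j the fifth. The remaining versions were found in Hist1h4a, Hist1h3g and Hist2h2ac. All are written 5′ to 3′ on the strand of the gene, and capitals mark the 4 loop bases between the stem arms.
Hist1h2ap and 24 others: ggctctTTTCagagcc
Hist1h4d and 6 others: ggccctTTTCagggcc
Hist1h3c and 5 others: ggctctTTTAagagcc
Hist1h4i and Hist2h4: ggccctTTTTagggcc
Hist1h4b and Hist1h4j: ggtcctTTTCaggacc
Hist1h4a: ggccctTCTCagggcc
Hist1h3g: ggctctTCTTagagcc
Hist2h2ac: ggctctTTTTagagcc
No H4 stem began as those of the other families did. In Hist1h2ap the stem-loop lies at chr13:21833029-21833044 (minus strand) with 3 annotated bases after it, and in Hist1h2ac at chr13:23683477-23683492 (minus strand) with 2010 bases after it.

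On the GRCm38 build, 51 of the genes lie on chromosome 13 between 21715763 and 23764406 (the Hist1 cluster), in a group of 22 and a group of 29 that are separated by 1487 kb after Hist1h2bj. Another 9 lie on chromosome 3 between 96219865 and 96270132 (Hist2), 2 on chromosome 11 between 58948920 and 58956830 (Hist3) and Hist4h4 on chromosome 6 between 136801553 and 136804415. The Hist1 genes held 96.0% of all histone UMIs in the WT library and 96.3% in the KO-labelled library.

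Promoters of 58 of the genes were matched by gene ID in RefSeq (GRCm38.p6). In the 250 bases before the start site, searched on both strands, CCAAT (the NF-Y box) was found in 81.0% of them against 33.8% of 32851 promoters of the table, in all 16 H2A and 14 H2B promoters but in 3 of 12 H4 promoters. TATAAA was found in 46.6% against 12.4%. The octamer ATTTGCAT, the box read by Pou2f1 (Oct-1), was found in 6 H2A and 6 H2B promoters and in no H1, H3 or H4 promoter, against 1.60% of all promoters. AAACACA, the H1 box, was found in 5 of 6 H1 promoters against 6.25% of all. A divergent H2A and H2B pair shares its promoter, so these counts are not independent, and none of the 4 motifs contains another. The 3 promoters below show the arrangement in a linker gene, in a core gene with an octamer and in Hist3h2ba, the gene that was lowest in the KO-labelled library relative to WT. Each is the stretch of 150 bases before the RefSeq start site, 5′ to 3′ on the strand of the gene, and capitals mark the 4 motifs on either strand.
Hist1h1b, chr13:21780626-21780775 (minus strand): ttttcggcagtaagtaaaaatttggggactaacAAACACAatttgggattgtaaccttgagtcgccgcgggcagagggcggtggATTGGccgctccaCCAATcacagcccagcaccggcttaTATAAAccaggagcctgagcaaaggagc
Hist1h2bb, chr13:23746584-23746733 (plus strand): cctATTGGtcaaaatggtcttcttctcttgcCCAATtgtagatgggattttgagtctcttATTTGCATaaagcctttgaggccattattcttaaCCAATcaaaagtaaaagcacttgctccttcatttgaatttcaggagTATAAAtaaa
Hist3h2ba, chr11:58948761-58948910 (plus strand): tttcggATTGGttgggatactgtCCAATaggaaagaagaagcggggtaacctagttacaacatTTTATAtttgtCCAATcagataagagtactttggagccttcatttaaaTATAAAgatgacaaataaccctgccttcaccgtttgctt
The H1 box is present only in the first and the octamer only in the second of these 3.

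A few genes gave most of the histone UMIs. Counts are 3′ tags that are not scaled to transcript length, so the order of genes is an order of UMIs captured and not of mRNA or protein made. The linker genes together stood at 1357 CPM (WT) and 1491 CPM (KO-labelled), and the core genes at 2691 and 3151 CPM. The H2A genes alone stood at 1998 and 2348 CPM, against 213 and 240 CPM for H2B, 185 and 232 CPM for H3 and 294 and 331 CPM for H4.

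Hist1h1b, the linker gene with most UMIs, stood at 728 CPM in WT and 763 CPM in the KO-labelled library. Hist1h1e followed at 360 and 409 CPM, and Hist1h1c, a linker gene that is also expressed outside S phase, at 107 and 133 CPM. Hist1h1d (87.5 and 104 CPM) and Hist1h1a (74.1 and 81.6 CPM) were close to each other, and Hist1h1t, the linker gene of the testis, had 24 UMIs in all.

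Among the core genes, the H2A gene Hist1h2ap stood at 1263 CPM in WT and 1456 CPM in the KO-labelled library, and Hist1h2ae at 460 and 569 CPM. All of the last 300 bases of Hist1h2ap recur in Hist1h2ao as 60-base words, so UMIs of this pair are uncertain in their assignment. The leading genes of the other families were Hist1h2bc (57.4 and 67.5 CPM), Hist1h3c (64.8 and 83.4 CPM) and Hist1h4d (124 and 134 CPM). Of the 63 genes, 40 shared at least 1 such 60-base word with another Hist gene and 29 shared most of these words, among them Hist1h3e, Hist1h3f and Hist2h2aa1. The H1 genes, Hist1h2ac, Hist1h2bc and Hist1h2be shared none.

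**Figure D1:**
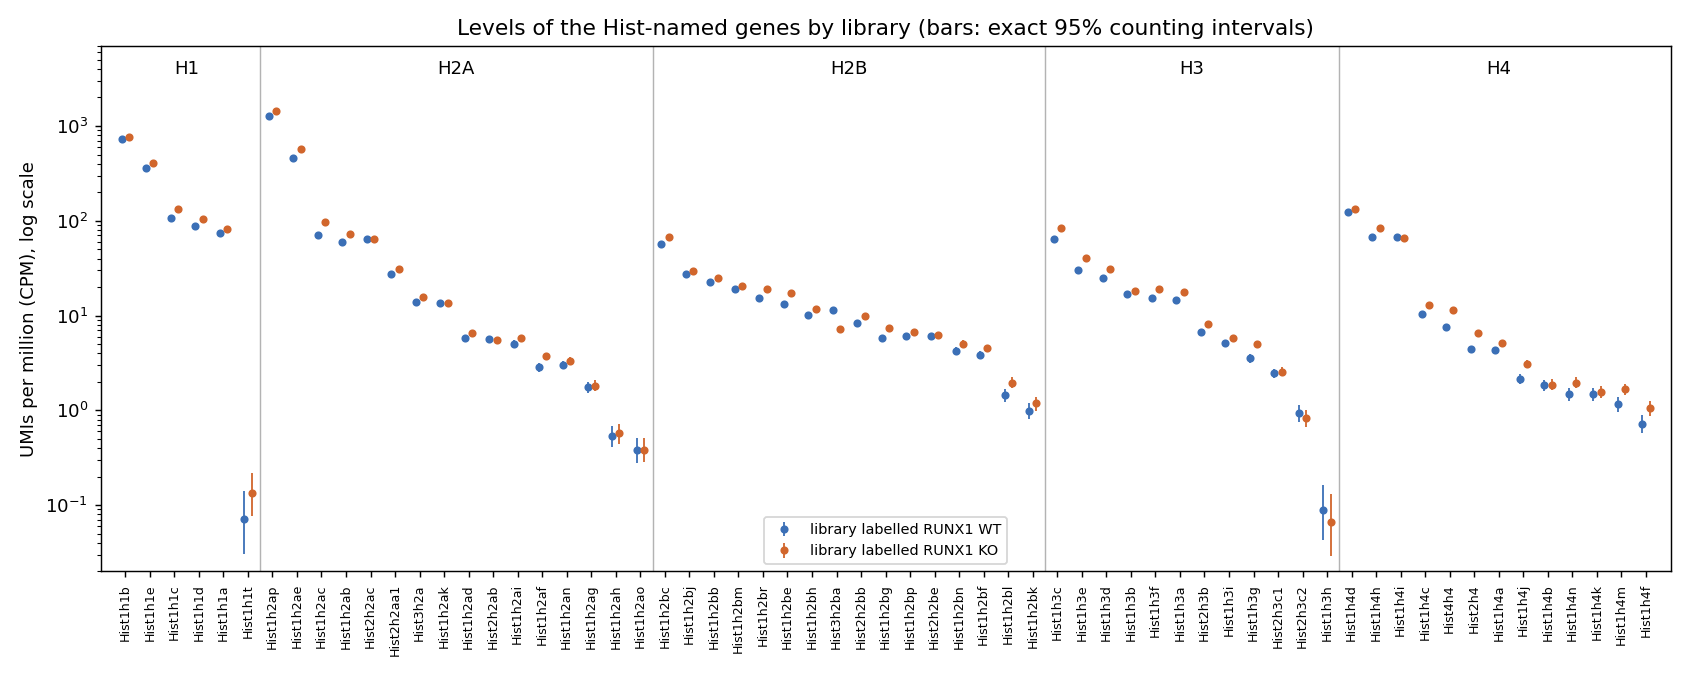
Level of each of the 63 genes in CPM (log axis), by family and in order of UMIs, with blue points for the WT library, orange points for the KO-labelled library and bars for exact 95% counting intervals. Hist1h2ap at 1263 and 1456 CPM and Hist1h1b at 728 and 763 CPM stand above the other genes, and Hist3h2ba is the gene that is most clearly lower in the KO-labelled library.

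The comparison of cell cycle classes asks when in the cycle the histone transcripts were found. Cells with a UMI of Ung or Dtl, genes of the G1-to-S transition, and none of Ccnb1 (cyclin B1) and Cenpf (a kinetochore protein) numbered 2806 in WT and 2768 in the KO-labelled library. Cells with a UMI of Ccnb1 or Cenpf and none of Ung and Dtl numbered 1964 and 2124, cells with both kinds 2409 and 1966, and cells with none of the 4 genes, called no-cycling cells here, 2293 and 3911. Median depth differed between the classes, from 6072 UMIs (WT) and 6705 UMIs (KO-labelled) in no-cycling cells to 15029 and 13911.5 UMIs in cells with both kinds, and a shallow cycling cell can fall among the no-cycling cells.

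Histone transcripts were highest in the Ccnb1/Cenpf cells. A peak was counted where the level in 1 of the 3 pure classes exceeded the next by more than counting error. By this rule 57 of the 63 genes peaked in Ccnb1/Cenpf cells in both libraries, against 9.12% of all genes. None peaked in Ung/Dtl cells in both libraries (5.98% of all genes), and none in no-cycling cells (10.4%). The 6 without a shared peak were Hist1h2bc, described below, and the low genes Hist1h4a, Hist1h4m, Hist1h2ao, Hist1h1t and Hist1h3h. Both linker and core genes took part, with 5 of 6 and 52 of 57.

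The summed core genes stood at 1030 CPM in the Ung/Dtl cells of the WT library, 4475 in the Ccnb1/Cenpf cells, 3301 in cells with both kinds and 1115 in no-cycling cells. In the KO-labelled library the same sums were 1156, 5605, 4729 and 913 CPM. The ratio of Ccnb1/Cenpf to no-cycling cells was 4.01 (3.95 to 4.08) in WT and 6.14 (6.06 to 6.22) in the KO-labelled library. In WT it was 2.60 when cells needed 1000 genes and at most 5% mitochondrial UMIs. That filter left 4985 WT cells (52.6% of those kept) and 8701 KO-labelled cells (80.8%). When classes were drawn from whole lists of cycle genes the WT ratio was 6.12. With the list-based classes the order of the libraries was reversed, and the KO-labelled library had the smaller core ratio. Those classes were small, with 135 WT and 227 KO-labelled cells high in the G2 and M list alone. Cells low in both lists numbered 323 and 659, while 3691 and 3076 cells were high in both and took no part in the ratio.

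The summed linker genes stood at 566, 2151, 1676 and 624 CPM in the same classes of the WT library and at 665, 2363, 2259 and 567 CPM in the KO-labelled one. Their ratios of Ccnb1/Cenpf to no-cycling cells were 3.45 (3.37 to 3.53) and 4.17 (4.09 to 4.24), below those of the core genes in both libraries. The stricter cell filter put the WT ratio at 2.32, and list-based classes again gave the KO-labelled library the smaller ratio. Without Hist1h1b the linker ratios were 2.53 and 2.67, and without Hist1h2ap the core ratios were 3.42 and 4.62. By this measure 54 of the 63 genes were at least 2-fold higher in Ccnb1/Cenpf than in no-cycling cells in WT (6.89% of all genes), and 59 in the KO-labelled library (7.93%). These counts include Hist1h1t and Hist1h3h, which had at most 6 UMIs in Ccnb1/Cenpf cells and 0 in no-cycling cells; genes with a UMI in no-cycling cells were 52 (4.59% of all genes) and 57 (6.55%). H2B was the core family with the smallest ratios, 2.07 and 2.76, and H2A had 4.53 and 7.50. That place of H2B rested on Hist1h2bc: without it the H2B ratios were 3.59 and 4.91, above the 3.32 and 4.06 of H4.

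With the main cell filter, Ung/Dtl cells held histone UMIs at about the level of no-cycling cells. Their ratio to no-cycling cells was 0.908 (linker) and 0.924 (core) in WT, and 1.17 and 1.27 in the KO-labelled library. These differences depended on which cells were kept and on how the classes were drawn. The stricter cell filter put both WT ratios further below 1. With classes from whole lists of cycle genes the ratios turned to 1.12 and 1.25 in WT and to 0.857 and 0.796 in the KO-labelled library. The linker ratio also turned to 1.03 in WT with cells thinned to 3000 UMIs, and to 0.848 in the KO-labelled library without Hist1h1b.

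Cells thinned to 3000 UMIs each gave the same picture with histone UMIs counted at equal depth. The classes were still drawn from the full counts, so depth could still decide which class a cell fell in. A Ccnb1/Cenpf cell held a median of 12 core histone UMIs in WT and 14 in the KO-labelled library, and a no-cycling cell held 1 in each. At least 10 core UMIs were found in 56.8% of Ccnb1/Cenpf cells against 5.90% of no-cycling cells in WT, and in 57.4% against 3.68% in the KO-labelled library. Hist1h2ap was detected in 77.8% of thinned Ccnb1/Cenpf cells against 32.1% of no-cycling cells in WT and in 77.0% against 31.9% in the KO-labelled library (unthinned, 88.8% against 45.7%, and 88.4% against 51.0%). Free RNA in droplets can give UMIs in cells that do not express a gene. The no-cycling shares can hold such UMIs together with those of shallow cycling cells, so they do not measure that background alone.

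**Figure D2:**
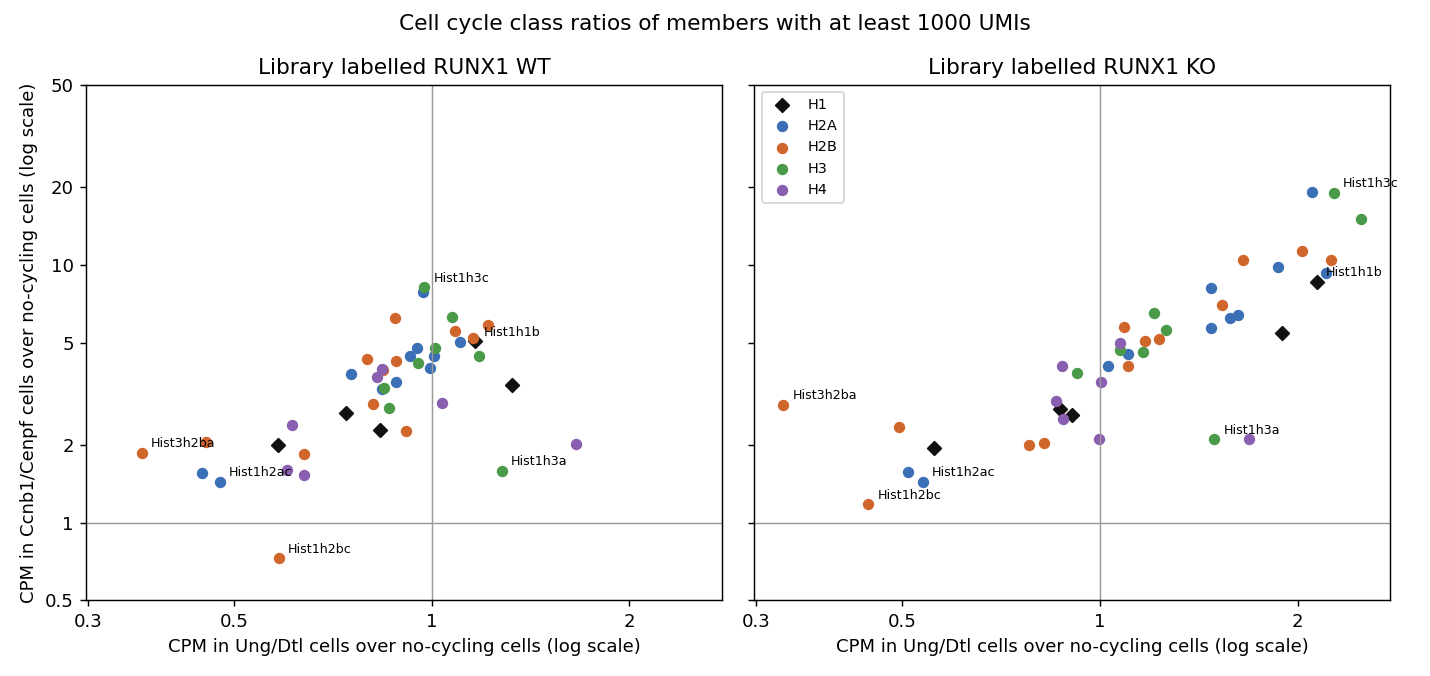
Each point is 1 of the 44 genes with at least 1000 UMIs, with its level in Ung/Dtl cells (x) and in Ccnb1/Cenpf cells (y) over that in no-cycling cells, both on log axes, for the WT library (left) and the KO-labelled library (right). On the vertical axis 43 of the 44 genes lie above 1 in WT and all 44 in the KO-labelled library, while on the horizontal axis 13 and 29 do.

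Genes within a family differed in the size of this ratio. Hist1h3c, an H3 gene, stood at 132 CPM in the Ccnb1/Cenpf cells and 16.1 CPM in the no-cycling cells of the WT library, and at 170 and 8.91 CPM in the other. The ratios were 8.20 and 19.1. Hist1h2ab had 7.87 and 19.2 and Hist1h3b 6.31 and 15.1, and in both libraries these 3 were the highest of the 44 genes with at least 1000 UMIs. Some genes with fewer UMIs had larger ratios, such as Hist1h3g with 12.3 and 15.8 on 990 UMIs and Hist1h4k with 21.0 in WT, where the no-cycling cells held 2 of its UMIs. Hist1h1b had the largest ratio of the linker genes apart from the sparse Hist1h1t, 5.06 and 8.63.

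At the other end stood Hist1h2ac, with 109 CPM in Ccnb1/Cenpf cells and 75.9 CPM in no-cycling cells of the WT library and 146 and 102 CPM in the other. Its ratio was 1.44 in each. Hist3h2a had 1.56 and 1.57, and Hist1h1c 2.01 and 1.95. These genes changed the make-up of the pool: Hist1h1b gave 53.4% of H1 UMIs in the Ccnb1/Cenpf cells of the WT library but 36.4% in the no-cycling cells, while Hist1h1c gave 8.34% and 14.3%. In the KO-labelled library the same shares were 51.9% and 25.1% for Hist1h1b and 9.08% and 19.4% for Hist1h1c. Among H2A genes Hist1h2ac went from 3.29% to 10.3% in WT and from 3.49% to 18.2% in the KO-labelled library.

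Hist1h2bc, the H2B gene with most UMIs, was the only one with a peak in the no-cycling cells of the WT library. It stood at 49.8 CPM in Ung/Dtl cells, 61.8 in Ccnb1/Cenpf cells, 50.3 in cells with both and 84.9 in no-cycling cells of that library. In the KO-labelled library the values were 38.2, 101, 50.9 and 85.8 CPM, with the peak in the Ccnb1/Cenpf cells. The ratio of Ccnb1/Cenpf to no-cycling cells was 0.728 (0.676 to 0.785) in WT and 1.18 (1.12 to 1.25) in the KO-labelled library. It made up 53.0% of H2B UMIs in no-cycling cells of the WT library against 18.6% in Ccnb1/Cenpf cells, and 57.7% against 24.7% in the KO-labelled one.

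A finer view came from counting UMIs of a list of S phase genes (such as Mcm2 and Pcna) and of a list of G2 and M phase genes (such as Top2a and Plk1) in each thinned cell, a split added after the classes above had been seen. The core sum was highest in cells with 10 or more UMIs of both lists, at 5084 CPM in WT (1456 cells) and 6644 CPM in the KO-labelled library (1289 cells). Cells with 10 or more S list UMIs but 0 to 1 of the G2 and M list held 488 and 483 CPM. Cells with 10 or more G2 and M list UMIs and 0 to 1 of the S list held 2756 CPM (120 cells) and 3340 CPM (164 cells). Linker genes followed the same order, with 2680 and 3321 CPM, 273 and 316 CPM, and 1048 and 1300 CPM in these 3 bins.

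Hist1h2bc was arranged differently. It was highest in cells with 5 to 9 G2 and M list UMIs and few S list UMIs, at 290 CPM in the 77 WT cells with 2 to 4 S list UMIs and 288 CPM in the 160 such KO-labelled cells. With 0 to 1 S list UMIs it stood at 277 CPM in only 15 WT cells and 541 CPM in 63 KO-labelled cells. In the cells with 10 or more UMIs of both lists it stood at 28.6 and 38.0 CPM. Hist1h1c was high in the same sparse bins, at 220 and 219 CPM and at 313 and 460 CPM.

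**Figure D3:**
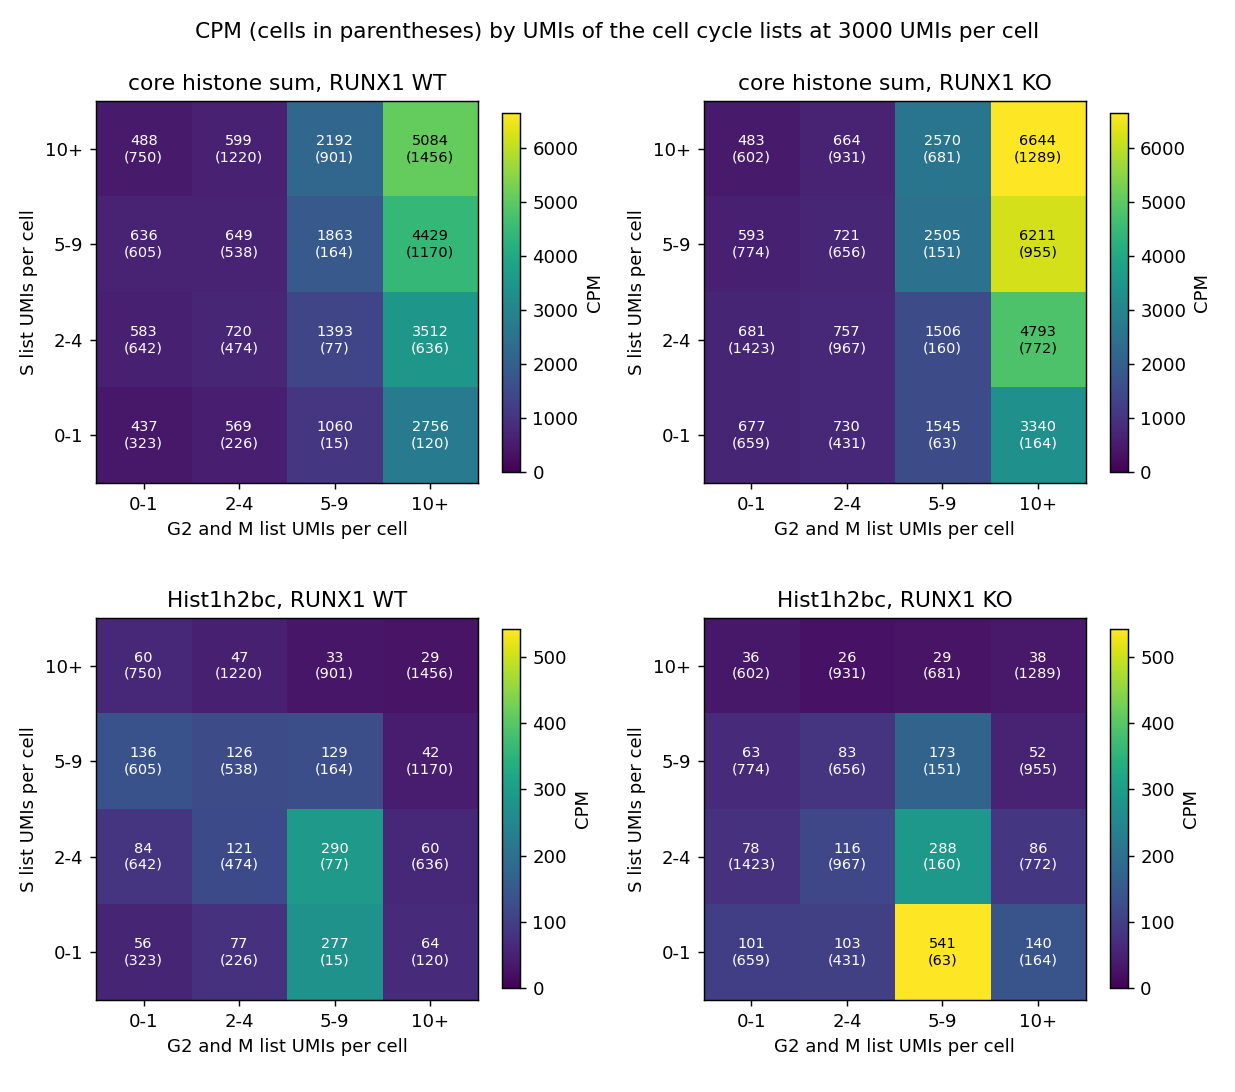
Level in CPM of the summed core genes (top) and of Hist1h2bc (bottom) in the WT library (left) and the KO-labelled library (right), for cells binned by UMIs of the S list (rows) and of the G2 and M list (columns) after thinning to 3000 UMIs, with the number of cells in parentheses. The core sum is highest in the top right corner (5084 and 6644 CPM), whereas Hist1h2bc is highest in the third column of the lower rows, where bins hold 15 to 160 cells.

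Taken gene by gene, thinned cells with a UMI of Top2a held 3901 CPM of core histones in WT against 1043 CPM in cells without, a ratio of 3.74, and 4.52 in the KO-labelled library. All 28 G2 and M genes tried gave ratios above 1 in both libraries. S phase genes were split, with 17 of 31 above 1 in WT and 21 of 31 in the KO-labelled library. The 28 include Ccnb1 and Cenpf, and the 31 include Ung and Dtl. Genes outside these lists were not tried, so no share over all genes stands beside these counts. Tyms, the thymidylate synthase gene, gave 1.58 and 1.84, and Rrm2 of ribonucleotide reductase 1.43 and 1.73, whereas Ung gave 0.371 and 0.342. The values of Ung were the lowest of the 31 in each library. Dtl, the other gene that defines the Ung/Dtl cells and the one found in more cells (1641 against 1261 in WT), gave 0.835 and 0.976.

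Detection of Hist1h2bc and Hist1h1c overlapped in part of the no-cycling cells. After thinning, Hist1h1c was detected in 36.3% (31.2 to 41.6) of the 347 no-cycling WT cells with a Hist1h2bc UMI. Among the 1821 without one it was detected in 19.5% (17.8 to 21.4). In the KO-labelled library the shares were 48.8% (44.4 to 53.3) of 510 cells and 19.6% (18.2 to 21.0) of 3326. No other pair of genes was compared in this way, so the overlap cannot be called particular to this pair.

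Genes were also grouped by the annotated end of their transcript. Stem-loops followed by under 100 annotated bases were found in 22 genes, whose median ratio of Ccnb1/Cenpf to no-cycling cells was 5.13 in WT and 6.61 in the KO-labelled library. In 23 genes the model ran 100 or more bases past the stem-loop, and the medians were 2.53 and 2.91. A poly(A) hexamer followed the stem-loop in 16 of these 23 and in 1 of the 22. It was searched in all annotated bases after the stem-loop, and longer stretches have more room for it. These counts therefore cannot compare the groups. Ratios within the longer models ran from 1.44 and 1.44 in Hist1h2ac to 4.75 and 8.16 in Hist1h2ae, 4.75 and 6.50 in Hist1h3f and, on 582 UMIs, 8.71 and 7.87 in Hist2h3c1. Hist1h1c, Hist1h1d and Hist1h1e were also in this group. Models without a stem-loop gave 3.43 and 4.51 where they were longer than the coding sequence (9 genes, among them Hist1h1b and Hist1h2bc) and 4.36 and 6.05 where they held only the coding sequence (9 genes). The medians leave out Hist1h1t and Hist1h3h, 2 genes with no UMI in no-cycling cells. Which end the captured molecules had was not measured.

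**Figure D4:**
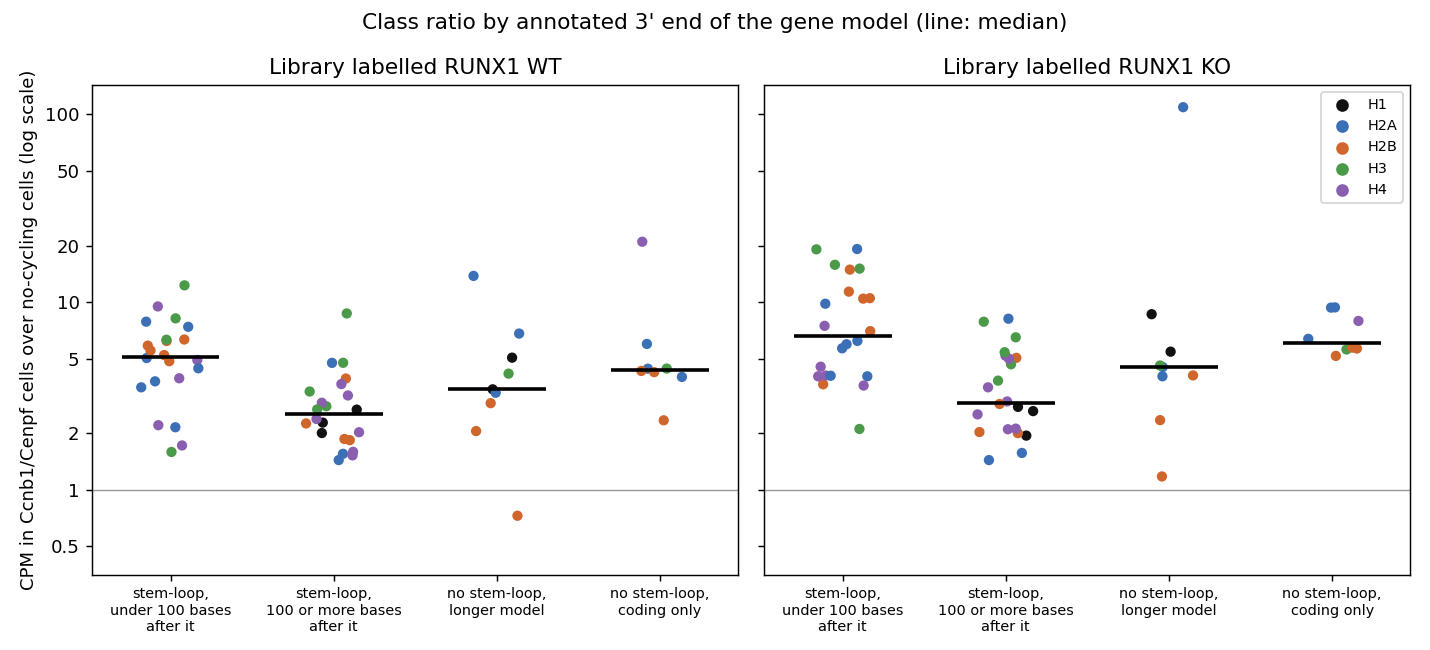
Ratio of the level in Ccnb1/Cenpf cells to that in no-cycling cells (log axis) for genes grouped by the annotated 3′ end of the model that runs furthest, with 1 point per gene coloured by family and a black line at the median, in the WT library (left) and the KO-labelled library (right). Genes whose model ends within 100 bases of the stem-loop have medians of 5.13 and 6.61, and genes whose model runs further have 2.53 and 2.91.

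Between the libraries, most histone genes were somewhat higher in the one labelled KO. The ratio of KO-labelled to WT was above 1 in 57 of the 63 genes, against 35.5% of all genes, and its median was 1.17 against 0.934 over all genes. Few differences were large: 2 genes were at least 1.5-fold higher, against 7.75% of all genes, and 1 at least 1.5-fold lower, against 14.0%. None differed 2-fold in either direction (4.13% and 7.91% of all genes). The count of higher genes ran from 0 to 7 and that of lower genes from 0 to 3 over the alternative settings. These ranges include the setting with a 2-fold threshold, which gave 0 higher and 0 lower. TMM scaling, which centres on the bulk of genes, gave ratios of 1.18 for the linker sum and 1.25 for the core sum.

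The linker sum had a ratio of 1.10 (1.09 to 1.11) and the core sum 1.17 (1.17 to 1.18). H3 had 1.25, H2A 1.17, H2B 1.13 and H4 1.12. Hist1h1b had the smallest linker ratio, 1.05, and fell below 1 in 3 alternatives, with 0.932 in male cells alone. Hist1h1c had 1.24 (1.21 to 1.27). Among the genes of chromosome 13 the median was 1.11 in the group of 22 and 1.23 in the group of 29.

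Hist1h2ac had the largest ratio among genes above 20 CPM, with 70.1 CPM in WT and 96.9 CPM in the other library (1.38, 1.34 to 1.42). The H4 genes Hist4h4 and Hist2h4 went from 7.64 to 11.4 CPM (1.49, 1.37 to 1.63) and from 4.40 to 6.62 CPM (1.504, 1.34 to 1.69). Each of these 3 stayed above 1 in every alternative, with lowest values of 1.35, 1.37 and 1.35. Hist1h1t reached 1.89 on 24 UMIs, with an interval of 0.763 to 5.10. Hist3h2ba, an H2B gene of the small chromosome 11 cluster, went the other way, from 11.4 to 7.22 CPM (0.633, 0.580 to 0.691). It stayed between 0.543 and 0.694 in all alternatives that could move it. Its neighbour Hist3h2a had 1.13. Hist2h2ac stood at 64.9 CPM in each library.

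The difference between libraries depended on the cell class. In no-cycling cells the core sum had a ratio of 0.819 (0.803 to 0.835) and the linker sum 0.910 (0.887 to 0.934), and 26 of 63 genes were above 1, against 36.8% of all genes. The linker value turned to 1.07 (1.04 to 1.11) without Hist1h1b, while the core value was 0.916 without Hist1h2ap. Without both Hist1h2ap and Hist1h2ae the core value was 0.966 (0.939 to 0.992). The median ratio in no-cycling cells was 0.933 over the 61 histone genes that had one, near the 0.928 over all genes. In cells with both kinds of cycle UMI the ratios were 1.43 and 1.35, and 60 of 63 genes were above 1, against 35.5% of all genes; 20 of them were at least 1.5-fold higher, against 8.34%. In Ccnb1/Cenpf cells the core ratio was 1.25 and the linker ratio 1.10, and 54 genes were above 1, against 38.4%. In Ung/Dtl cells the ratios were 1.12 and 1.17, and 47 genes were above 1, against 34.0%.

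Single genes showed the same spread over classes. Hist1h2ap had 0.651 in no-cycling cells and 1.27 in Ccnb1/Cenpf cells, and Hist1h3c 0.553 and 1.29. Hist1h2ac was even, with 1.34 in both. Hist3h2ba was lower in the KO-labelled library in all 4 classes, with ratios of 0.417, 0.703, 0.723 and 0.457 in Ung/Dtl, Ccnb1/Cenpf, both and no-cycling cells. Hist1h2bc had 1.64 in Ccnb1/Cenpf cells and 1.01 in no-cycling cells.

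**Figure D5:**
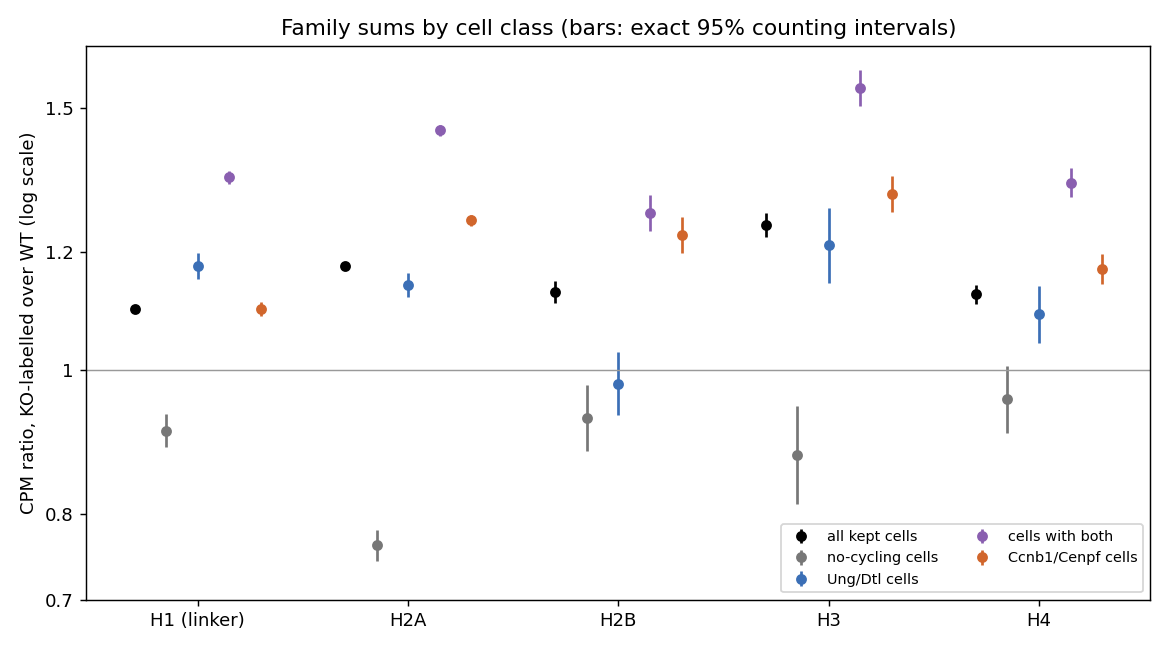
Ratio of the summed level in the KO-labelled library to that in the WT library (log axis) for each histone family, over all kept cells and in each cell class, with bars for exact 95% counting intervals. The points of all 5 families lie below 1 in no-cycling cells, though the H4 interval (0.906 to 1.01) reaches 1 and the linker point turns to 1.07 without Hist1h1b, and highest in cells with both kinds of cycle UMI, where H3 has the largest value.

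The cell classes themselves took different shares of the libraries. No-cycling cells were 24.2% of the WT cells and 36.3% of the KO-labelled ones, cells with both kinds 25.4% and 18.3%, Ung/Dtl cells 29.6% and 25.7%, and Ccnb1/Cenpf cells 20.7% and 19.7%. With each class given the same weight the ratios were 1.17 (linker) and 1.25 (core). In male cells alone they were 1.02 and 1.10.

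Markers of other cells also moved between the libraries. All 8 mature neutrophil markers, such as S100a8, were higher in the KO-labelled library, with sums of 116 and 633 CPM and none at 0. Of 11 erythroid markers 9 were higher (1601 and 2122 CPM), and of 6 basophil and mast cell markers 4 were lower (298 and 180 CPM). The 10 megakaryocyte markers were split, with 6 higher and 4 lower and sums of 1933 and 1118 CPM, most of it Pf4 at 1483 and 485 CPM. Sums were also lower in the B, T and NK cell list (313 and 183 CPM), where 3 measured genes were higher and 4 lower. The lymphoid-primed list went from 369 to 246 CPM, but 3 measured genes were higher and 3 lower, with a median ratio of 1.13. Of 9 granulocyte and monocyte progenitor markers 8 were higher and 1 lower (1753 and 2121 CPM). Without the cells that held 10 or more UMIs of mature neutrophil genes, of Mcpt8 and Prss34 or of haemoglobin genes, the linker ratio was 1.09 and the core ratio 1.16. The part of the remaining cells in the histone ratios was not tested. Hist1h2ac stood at 151 CPM in the 170 WT cells and 142 CPM in the 871 KO-labelled cells with at least 3 thinned UMIs of basophil and mast cell markers, above its level over all cells. These 2 sets of cells were picked by different markers, since Mcpt8 and Prss34 stood at 108 and 109 CPM in WT but 0.755 and 0.0587 CPM in the KO-labelled library, while Cpa3 stood at 46.4 and 164 CPM. Among the marker-defined cells of the WT library, Hist3h2ba was highest in the 2028 cells with stem cell markers, at 16.7 CPM. The 1874 such KO-labelled cells held 7.80 CPM and were not the highest there. KO-labelled cells with basophil and mast cell markers held 9.56 CPM, those with erythroid markers 8.61 CPM and those with none of the lists 8.49 CPM.

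Other genes of the histone pathway are set beside all genes, of which 64.5% had a ratio of KO-labelled to WT below 1, with a median of 0.934. Of 17 genes for histone mRNA transcription and 3′ processing, 15 had a ratio below 1, with a median ratio of 0.889. Among these, Npat, the activator of histone gene transcription, had 0.815, Sympk, the scaffold of the cleavage complex, 0.737 and Pou2f1, which reads the octamer, 0.769. Slbp itself stood at 138 CPM in WT and 129 CPM in the KO-labelled library, and peaked in Ung/Dtl cells in both. Of the 17 genes 6 had a shared peak in Ung/Dtl cells and 3 in Ccnb1/Cenpf cells.

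Of 23 measured histone chaperone genes, 19 had a ratio below 1, and their median of 0.909 was close to that of all genes. Chaf1a, a subunit of the assembly factor CAF-1, had a ratio of 0.739, Hira, which places H3.3, 0.733 and Nap1l1, a carrier of H2A and H2B, 0.761. Of these 23, 11 shared a peak in Ung/Dtl cells and 3 in Ccnb1/Cenpf cells. Of the S phase list 28 of 29 genes lay below 1 (median 0.844), led by Uhrf1 at 0.680, and 27 peaked in Ung/Dtl cells in both libraries. Of the G2 and M list 21 of 26 lay below 1, with a median of 0.929 that was also close to that of all genes and Anln at 0.752, and all 26 peaked in Ccnb1/Cenpf cells. Uhrf1 maintains DNA methylation and Anln builds the cleavage furrow.

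The 11 replacement and variant histones, which carry no Hist symbol and are made outside S phase as well, were split, with 6 higher and 5 lower and a median of 1.002. H1f0, the linker histone of resting cells, stood at 87.3 CPM in WT and 107 CPM in the KO-labelled library (1.23), H1fx at 258 and 194 CPM (0.755) and H3f3b, an H3.3 gene, at 1918 and 2237 CPM (1.17). By cell class, 8 of the 11 peaked in Ccnb1/Cenpf cells in both libraries. H2afx, whose product marks DNA breaks, had ratios of Ccnb1/Cenpf to no-cycling cells of 6.40 and 7.21, and Cenpa, the centromeric H3, 9.85 and 11.7, whereas H1f0 had 1.54 and 1.65 and H3f3b 1.10 and 1.09.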

How the data were processed

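The deposited values are UMI counts for each gene and barcode. The submitters' processing notes name Cell Ranger 2.1.1 and mm10, but per the file headers the software version was 3.1.0. The kit was 3′ v2, per the labels. Barcodes with at least 500 genes and at most 10% mt- UMIs were kept. Doublets were not removed. Counts were summed over cells of each library and class and divided by the summed UMIs (CPM). Sums have exact Poisson, ratios exact conditional binomial and shares Clopper-Pearson intervals, all at 95%, which cover the error of counting alone. No test was made with 1 library per genotype. Thinning drew 3000 UMIs per cell without replacement and left out 155 WT and 91 KO-labelled cells.

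Members and gene lists were chosen with earlier results of these data known. Named genes were members that reached 5 CPM in at least 1 library, members 2-fold apart with at least 50 UMIs, and the 2 members with most UMIs of each family and cluster, besides 3 members of each other list by largest ratio among those that reached 20 CPM. That rule named 44 members. Others named as examples, among them Hist1h1t, Hist1h3h, Slbp, H2afx, Cenpa and the single cycle genes, were chosen after their values were seen. Stem-loops were searched in GENCODE M21 transcripts with a consensus pattern of arms around 4 loop bases. The pattern did not require the arms to pair and limited the loop bases, so versions outside it would be missed. The calculations were tested on simulated sums. Python 3.11.15, numpy 2.4.6, scipy 1.17.1, pandas 2.3.3 and edgeR 4.0.16 (TMM factors only) were used.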

Additional observations from a re-analysis of the deposited data

Results flagged for a closer look

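Ung/Dtl cells and no-cycling cells compared in opposite directions in the 2 libraries. The linker ratio of the former to the latter was 0.908 in the WT library and 1.17 in the KO-labelled library, the core ratio 0.924 and 1.27, and the ratio of Hist1h2ae 0.952 and 1.48. Hist1h2bc had a ratio of Ccnb1/Cenpf to no-cycling cells of 0.728 in the WT library and 1.18 in the KO-labelled library. With 1 library per genotype these differences between libraries were not tested.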

How the results depend on the processing

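No paired analysis was possible because each group has 1 library. The planned count of members whose counting interval leaves out 1 was not run, since it would count changed genes from the UMIs of single libraries. The ratio of Ccnb1/Cenpf to no-cycling cells, added after the class levels were seen, stayed above 1 in every alternative. Of the 44 named members 32 kept their side of 1 between libraries in all 11 alternatives while 12 did not. Among these 11, the minimum of 50 UMIs and the 2-fold threshold leave the ratio of each gene unchanged. No member could change side in them. Members that peaked in Ccnb1/Cenpf cells in both libraries numbered 38 (the smaller classes from whole lists) to 57. Members above 1 between libraries numbered 46 (male cells) to 60.

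The stricter cell filter left 52.6% of the kept WT cells and 80.8% of the kept KO-labelled ones. It gave between-library ratios of 1.01 (linker) and 1.10 (core) with 1 member at least 1.5-fold higher. In WT it gave Ung/Dtl ratios of 0.660 and 0.637 and Ccnb1/Cenpf ratios of 2.32 and 2.60. Without the 5% deepest cells the between-library ratios were 1.08 and 1.15, the Ung/Dtl ratios of the KO-labelled library 1.15 and 1.22, and the Ccnb1/Cenpf ratios 3.58 and 4.17 in WT and 4.35 and 6.41 in the KO-labelled library. TMM factors gave 1.18 and 1.25, with 7 members higher and 0 lower past 1.5-fold. Totals without ribosomal protein and mt- genes gave 1.14 and 1.22 with 4 members higher, Ung/Dtl ratios of 0.880 and 0.896 in WT and 1.13 and 1.23 in the KO-labelled library, and Ccnb1/Cenpf ratios of 3.20 and 3.72, and 3.84 and 5.66. Equal class weights gave 1.17 and 1.25 with 7 members higher.

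Thinned cells gave 1.05 and 1.09 with 3 members lower, Ung/Dtl ratios of 1.03 and 0.997 in WT and 1.11 and 1.22 in the KO-labelled library, and Ccnb1/Cenpf ratios of 3.97 and 4.68 in WT and 6.31 (core) in the KO-labelled library. Leaving out cells with many mature lineage UMIs gave 1.09 and 1.16, and a core Ccnb1/Cenpf ratio of 6.25 in the KO-labelled library. Male cells gave 1.02 and 1.10, with 6 members higher and 2 lower. Classes from whole lists gave Ung/Dtl ratios of 1.12 and 1.25 in WT and 0.857 and 0.796 in the KO-labelled library, and Ccnb1/Cenpf ratios of 3.70 and 6.12, and 2.92 and 4.45. Classes that needed 2 UMIs of a pair gave 0.844 and 0.847, 1.10 and 1.15, then 3.54 and 4.17, and 4.40 and 6.59, in the same order. A minimum of 50 UMIs left 1 member at least 1.5-fold higher, and a 2-fold threshold 0 higher and 0 lower. Without the member with most UMIs the between-library ratios were 1.16 and 1.19, the Ung/Dtl ratios 0.762 and 0.820 in WT and 0.848 and 1.02 in the KO-labelled library, and the Ccnb1/Cenpf ratios 2.53 and 3.42, and 2.67 and 4.62. The cause of these shifts was not tested.

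Pools of 1 library per genotype limit every comparison between libraries, as mice and handling cannot be told apart from genotype, and sex is held fixed only in the male cells. Depth limits Hist1h1t and Hist1h3h, with 24 and 18 UMIs.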
